A study of Homo sapiens with 30 samples.

Results

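Clone 12 is 1 of 4 clones of Rh30, an established alveolar rhabdomyosarcoma cell line, in which an FKBP degradation tag had been placed on PAX3-FOXO1. It is described here by its 2 RNA-seq libraries, of 30 samples in the series, set against the 6 libraries of clones 4, 10 and 11, which carry the same tag and number 2 libraries each. The comparison took the mean of the 3 clone means on the log scale, and then each of the 3 clones in turn. All 8 libraries carry the treatment label DMSO, the vehicle, so no dTAG was given to any of them. Each of the 4 lines is 1 clone, so the libraries of a line are not separate clones. The sample titles number the clone 12 libraries 3 and 4 and those of the other clones 1 and 2, whereas the headers of the count table number all of them 1 and 2. Neither says whether clone 12 was prepared apart. Nothing in the labels says whether the libraries of a clone came from separate cultures, and the p-values therefore reflect variation among these samples that may be technical.

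PAX3-FOXO1 joins the DNA-binding domains of PAX3, a transcription factor of muscle progenitors, to the activation domain of FOXO1. In fusion-positive rhabdomyosarcoma it holds a set of enhancers active and keeps cells of the muscle lineage from finishing differentiation. The FKBP tag lets dTAG, a small molecule, bring the fusion protein to the proteasome. Cells of a cancer line differ in gene content and in which silenced genes have become active, and a clone carries forward the state of the cell it grew from.

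The 8 libraries held 17746684 to 24560297 counts, and 13879 of 23261 genes passed the filter on low counts. Values below are normalised counts, scaled to the mean effective library size of the 8 libraries. Of the 10 muscle lineage markers, 9 were tested. MYOD1, the master regulator of the lineage, had 41628 and 38134 normalised counts in clone 12 and between 41600 and 63948 in the other clones, and MYF5 had 0 counts in all 8 libraries. CDH15, the cadherin of satellite cells, was lower in clone 12 (log2 difference -0.67) and MYL4, an embryonic myosin light chain, was higher (1.21), while the other 7 tested markers were not called. No erythroid marker of 12 passed the filter, and the leukocyte gene PTPRC had 1 count in clone 12 and 1 count in the other clones. The summed level of 10 fibroblast markers was 3665 to 4800 in clone 12 and 1965 to 23547 in the other clones, and that of 16 epithelial markers 574 to 663 in clone 12 and 622 to 3972 in the others. The sum of 23 neuronal genes was 29817 to 33295 in clone 12, above the 19614 to 26321 of the other clones. DPYSL3, with 10524 and 9211 in clone 12 and 2607 to 4851 in the others, and TUBB3, with 4572 and 3891 in clone 12 and 539 to 2456 in the others, carried most of that gap, while the median log2 difference of the list was -0.051, with 6 genes called higher and 4 lower. The part of other cell states in the results was not tested.

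The fusion's own genes were not called in clone 12. PAX3 had 302 and 320 normalised counts in clone 12, while clone 4 had 776 and 315, clone 10 had 547 and 446, and clone 11 had 328 and 273. FOXO1 had 604 and 622 in clone 12, while clone 4 had 1181 and 837, clone 10 had 1012 and 705, and clone 11 had 877 and 567. The ranges overlapped for both genes, and neither passed (log2 difference -0.48 for each, adjusted p = 0.233 for PAX3 and 0.121 for FOXO1, edgeR quasi-likelihood test). FKBP1A, the gene the tag derives from, differed by -0.16 on the log2 scale (adjusted p = 0.373, edgeR). The table lists genes by symbol, so transcripts of the fusion and of the intact PAX3 and FOXO1 genes were not separated.

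Across all genes, 1734 were higher and 1424 lower in clone 12 than the mean of the other clones at an adjusted p under 0.05 (edgeR quasi-likelihood test). That is 12.5% and 10.3% of the genes tested, or 22.8% in either direction. With a difference of at least 2-fold as well, 660 (4.76%) were higher and 526 (3.79%) lower. Of all genes called, 21.1% passed against each of the other clones. In numbers, 334 genes (2.41%) were higher and 332 (2.39%) lower in clone 12 than in each of clones 4, 10 and 11, with all 3 pairwise tests passed, or 4.8% in either direction. The same count for the other lines was 326 higher and 333 lower for clone 4, 368 higher and 404 lower for clone 10, and 378 higher and 537 lower for clone 11. Against single clones, 1668 genes (12%) were higher and 1737 (12.5%) lower than in clone 4, 1952 (14.1%) and 2081 (15.0%) than in clone 10, and 1592 (11.5%) and 1413 (10.2%) than in clone 11. These pairwise counts changed by over 1.5 times without either clone 12 library or without the first library of the clone compared, to as few as 803 and 707 against clone 4, 639 and 800 against clone 10, and 725 and 508 against clone 11. The count higher than clone 10 was 1256 without its second library, and the counts against clone 11 were 1019 and 883 without its second. The counts depend on having both clone 12 libraries: 672 genes were higher and 436 lower without the first of them, and 687 and 407 without the second. For the genes called against each clone, 137 were higher and 148 lower without the first clone 12 library, 152 and 129 without the second, 168 and 201 without the first library of clone 10, and 216 were higher without the first library of clone 11. With each clone taken as 1 sample, so that the spread is that between clones 4, 10 and 11, edgeR called 2 genes, MAGEC1 and MAGEC2, with 553 of 13879 genes at an unadjusted p under 0.05.

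The largest differences among genes averaging at least 50 normalised counts were in a pair of cancer-testis antigens on chromosome X, genes that are normally transcribed in male germ cells and kept methylated and silent in other tissues. MAGEC1 had 944 and 907 normalised counts in clone 12, while clone 4 had 1.0 and 0.0, clone 10 had 2.5 and 1.0, and clone 11 had 0.0 and 2.5. MAGEC2 had 545 and 513 in clone 12 and at most 1.2 in any library of the other clones. Both genes were thus on in clone 12 and near 0 in the other 3 clones. MAGEC2 held 1007 counts in the clone 12 libraries and 2 in the other 6, a ratio of 1610 after scaling for depth (exact 95% binomial interval 444 to 13300, counting error only). The fitted log2 difference of MAGEC1 was 9.68 (adjusted p = 3.85e-08, edgeR). With each clone as 1 sample it was 9.59, and that of MAGEC2 was 10.4. MAGEB1, a related antigen, had 402 and 401 in clone 12, while clone 4 had 140 and 121, clone 10 had 0.8 and 0.0, and clone 11 had 23.3 and 33.4, so its level differed among the other clones as well (log2 difference 4.96, adjusted p = 6.51e-07, edgeR). Of 47 cancer-testis antigens listed, 7 passed the filter on low counts. Of these, 4 were higher in clone 12 than in each other clone and none was lower, beside 2.41% and 2.39% of all genes. MAGEC1, MAGEC2 and CTAG2 passed the filter only through the clone 12 libraries, where they are high. Their direction among the tested genes was thus set by the filter, and their p-values do not allow for that. The same holds for the calls of MAGEC1 and MAGEC2 with each clone as 1 sample. The count of 4 is therefore partly set by the filter and is not evidence about the list.

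Clone 12 also had genes that were off in it and on in the others. PRDM16, a chromatin regulator known for its part in brown fat and muscle fate, had 0 counts in both clone 12 libraries, while clone 4 had 33.1 and 22.5 normalised counts, clone 10 had 252 and 175, and clone 11 had 44.9 and 85.4. Set against 3 counts per library, it was at least 23-fold lower in clone 12 than the geometric mean of clones 4, 10 and 11. The bound against clone 4, the lowest of those clones, is smaller. ZDHHC15, a palmitoyltransferase gene on chromosome X, also had 0 counts in clone 12 and 31.1 to 93.7 in the other clones. It was at least 17.0-fold lower than the geometric mean of the other clones, and the bound against the lowest of them is smaller. IFT27, a subunit of the intraflagellar transport complex of cilia, held 1 count in clone 12 and 526 in the other clones, a 165-fold lower level after scaling for depth (exact 95% binomial interval 29.4 to 6540). PLN, the inhibitor of the calcium pump of the sarcoplasmic reticulum, held 2 counts in clone 12 and 737 in the others, 115-fold lower (31.8 to 952).

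A rule made after the values were seen shows how common such states were. A gene counted as on in a clone with at least 20 normalised counts in both libraries and as off with at most 5. By that rule 89 genes were on or off in every clone and differed among them. Clone 12 on its own had 9 on (CTAG2, DNAH5, DSCR4, DSCR8, ESRRB, MAGEC1, MAGEC2, MAP1LC3A and MIA) and 7 off (ANKRD29, GALNTL4, NOL4, PRDM16, USP51, ZDHHC15 and LOC100507377). Clone 4 alone had 8 on and 10 off, clone 10 alone 13 and 8, and clone 11 alone 10 and 8. DSCR4 and DSCR8, neighbours on chromosome 21, had no counts in any of the other 6 libraries. DSCR8 had 115 and 120 normalised counts in clone 12, at least 39.1-fold higher than the level of 3 counts per library.

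The promoters of MAGEC1, MAGEC2, IFT27 and ZDHHC15 are shown because these genes were near or at 0 in clone 12 or in all the others. They run from 250 bases before to 50 after the start of the gene, from RefSeq on GRCh38.p14, written 5′ to 3′ on the strand of the gene, with each CG dinucleotide, the site of DNA methylation, in capitals. MAGEC1 lies at chrX:141903644-141903943 on the plus strand, and MAGEC2 at chrX:142205241-142205540, IFT27 at chr22:36776070-36776369 and ZDHHC15 at chrX:75522988-75523287 on the minus strand.
MAGEC1: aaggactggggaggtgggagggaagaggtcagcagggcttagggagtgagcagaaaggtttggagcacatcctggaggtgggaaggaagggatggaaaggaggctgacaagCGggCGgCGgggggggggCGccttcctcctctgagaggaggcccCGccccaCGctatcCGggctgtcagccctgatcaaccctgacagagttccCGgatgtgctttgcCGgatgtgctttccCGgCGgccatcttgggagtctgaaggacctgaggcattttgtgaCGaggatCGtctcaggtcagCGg
MAGEC2: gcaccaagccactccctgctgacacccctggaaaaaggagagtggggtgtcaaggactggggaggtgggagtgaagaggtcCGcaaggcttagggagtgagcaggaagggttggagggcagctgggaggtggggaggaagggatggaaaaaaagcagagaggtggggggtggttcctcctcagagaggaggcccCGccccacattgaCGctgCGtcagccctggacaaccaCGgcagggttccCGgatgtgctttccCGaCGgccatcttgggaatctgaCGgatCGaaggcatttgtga
IFT27: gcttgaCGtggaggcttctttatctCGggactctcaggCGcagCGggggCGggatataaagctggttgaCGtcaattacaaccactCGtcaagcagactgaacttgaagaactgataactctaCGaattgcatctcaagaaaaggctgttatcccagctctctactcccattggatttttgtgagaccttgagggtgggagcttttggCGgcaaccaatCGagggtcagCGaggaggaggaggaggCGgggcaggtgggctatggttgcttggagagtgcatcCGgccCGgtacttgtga
ZDHHC15: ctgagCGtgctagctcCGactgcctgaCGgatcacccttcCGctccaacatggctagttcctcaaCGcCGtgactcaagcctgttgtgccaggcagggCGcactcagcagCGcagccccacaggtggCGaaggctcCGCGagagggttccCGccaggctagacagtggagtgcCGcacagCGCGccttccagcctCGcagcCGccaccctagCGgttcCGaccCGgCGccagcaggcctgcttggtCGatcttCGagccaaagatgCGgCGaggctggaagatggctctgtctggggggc
The window of MAGEC1 held 14 CG dinucleotides, that of MAGEC2 10, that of IFT27 14 and that of ZDHHC15 25. The median over 34943 promoter windows was 14, and 50.2%, 56.3%, 50.2% and 31.9% of all windows held at least as many as MAGEC1, MAGEC2, IFT27 and ZDHHC15. DNA methylation was not measured in these samples.

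Other genes were graded rather than on or off. TSPO, the translocator protein of the outer mitochondrial membrane, had 178 and 266.5 normalised counts in clone 12, against at most 1.0 in clone 4, 3.4 in clone 10 and 26 in clone 11 (log2 difference 6.13, SE 0.43, adjusted p = 8.27e-06, edgeR). RCAN2, a regulator of calcineurin, had 584 and 319 in clone 12 and 11.6 to 71.2 in the other clones (log2 difference 4.07). ISL1, a homeobox factor of motor neurons and heart progenitors, had 184 and 136 in clone 12 and 25.1 to 36.4 in the other clones (2.41). COL15A1, a basement membrane collagen, had 1708 and 2084 in clone 12 and 65.4 to 409 in the others (3.81). PLEKHA6, TNFRSF19 and ENO2, the neuronal form of enolase, were higher than in each other clone by at least 2.8, 2.57 and 2.42 on the log2 scale.

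The forkhead pair FOXC2 and FOXL1, which lie next to each other on chromosome 16 and act in mesoderm, was lower. FOXC2 had 22.8 and 8.7 normalised counts in clone 12, while clone 4 had 493 and 428, clone 10 had 445 and 395, and clone 11 had 332 and 287 (log2 difference -4.66, SE 0.31, adjusted p = 5.31e-06, edgeR). FOXL1 had 9.1 and 10.7 in clone 12 and 91.7 to 212 in the other clones (-3.76). FOXF1, of the same cluster and listed as a PAX3-FOXO1 target, had 61.6 and 45.5 in clone 12 and 124 to 444 in the others (-2.47). No clone 12 library reached the lowest library of the other clones in any of the 3 genes. The same held in 11.1% of all genes and in 73.2% of the genes called lower. PALM, a membrane protein of neurites, had 9.1 and 12.6 in clone 12 and 263 to 603 in the others (-5.09). KRT17, a basal keratin, had 735 and 786 in clone 12, while clone 4 had 9886 and 9935, clone 10 had 4440 and 4995, and clone 11 had 21725 and 31476 (-3.82, adjusted p = 7.85e-07, edgeR).

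**Figure D1:**
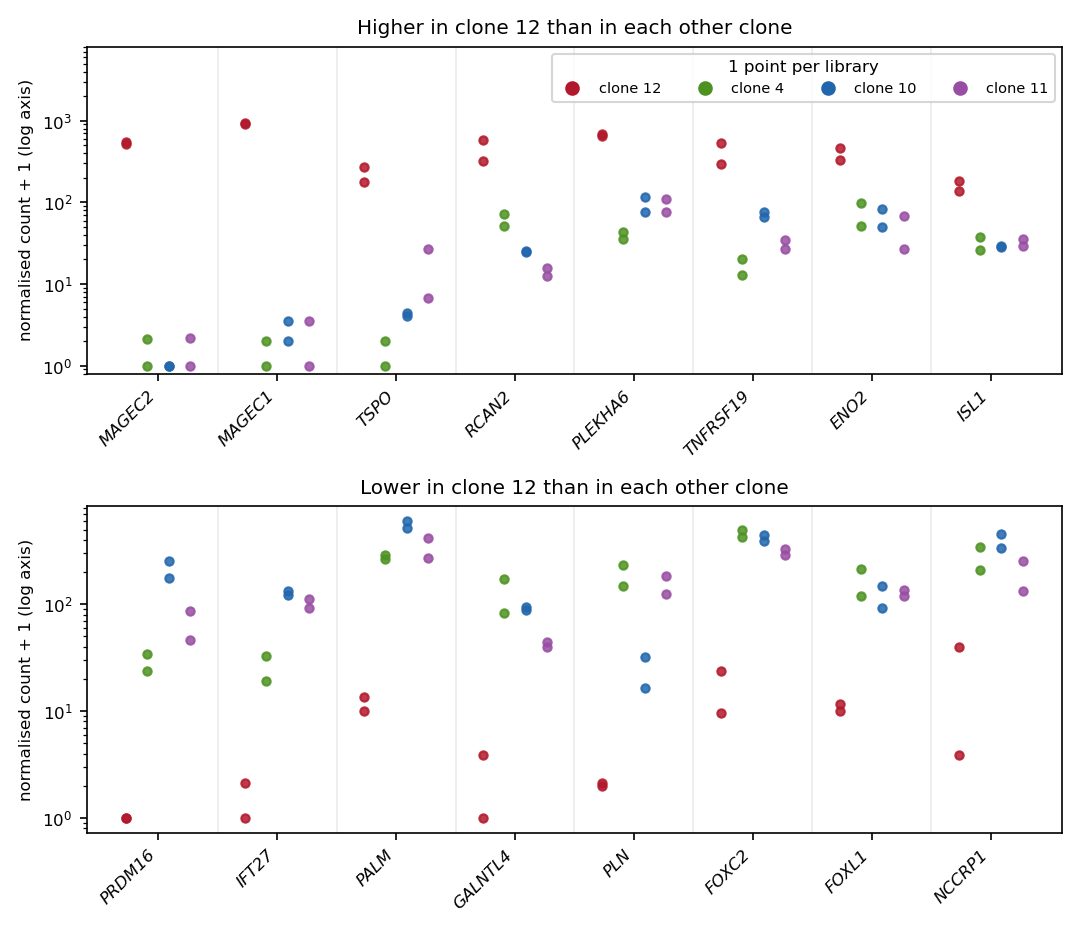
Normalised counts plus 1 (vertical log axis) of the 8 genes each way whose smallest difference from any other clone was largest, with 1 point per library and clone 12 drawn left of clones 4, 10 and 11 for each gene. Both clone 12 points lie above all 6 others for each of the 8 higher genes, and under all 6 others for each of the 8 lower genes. The genes were chosen by their difference from every other clone, so this separation is largely set by the choice. Over all genes it held in 11.7% above and 11.1% below. MAGEC1 and MAGEC2 lie near 1000 and 500 in clone 12 and near 1 elsewhere.

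Some of the largest differences from the mean did not belong to clone 12 alone. THY1, a surface glycoprotein of fibroblasts and neurons, had 1146 and 1028 normalised counts in clone 12, which lay within the 502 to 1403 of clones 4 and 10, while both libraries of clone 11 had 0. LAMA1, a laminin chain, had 307 and 422 in clone 12 and 455 and 619 in clone 11, with at most 5.2 in clones 4 and 10. ITIH5 had 67.3 and 66.9 in clone 12, while clone 11 had 220 and 189, and clones 4 and 10 had 0 counts. CLEC11A had 0 counts in clone 12, 705 and 995 in clone 11, and at most 16.1 in clones 4 and 10. These genes divided the 4 clones in ways that a mean of 3 clones does not show.

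Published PAX3-FOXO1 target genes were more often lower than higher. Of 36 listed and tested, 15 were lower in clone 12 than the mean of the other clones, 3 were higher and 18 did not pass. The share lower was 41.7%, against 10.3% of all genes, and the median log2 difference was -0.46, against 0.0041 over all genes. The list was drawn up with earlier results of these data known, so its direction is not independent evidence. TFAP2B, a transcription factor used as a marker of fusion-positive tumours, had 185 and 194 normalised counts in clone 12, while clone 4 had 849 and 801, clone 10 had 660 and 590, and clone 11 had 828 and 737 (log2 difference -1.96, SE 0.15, adjusted p = 1.67e-05, edgeR). CDH3, P-cadherin, had 70.7 and 75.6 in clone 12 and 262 to 456 in the others (-2.20), and HMGA2, a chromatin protein of embryonic growth, had 873 and 844 in clone 12 and 1802 to 3794 in the others (-1.78). In all 3 genes the groups did not overlap; over all genes, both clone 12 libraries lay below all 6 others in 11.1% and above them in 11.7%.

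In all, 11 of the 36 targets were lower in clone 12 than in each other clone, against 2.39% of all genes. Beside TFAP2B, CDH3, HMGA2 and FOXF1 these were GREM1 (-1.76), an inhibitor of bone morphogenetic proteins, NOS1 (-1.27), neuronal nitric oxide synthase, PRDM12 (-1.06), a regulator of sensory neuron fate, DAPK1 (-1.06), a death-associated kinase, NELL1 (-1.0), the receptor tyrosine kinase ALK (-0.95) and OLIG2 (-0.79), a neural lineage factor, as log2 differences from the mean of the other clones. MYL1, a myosin light chain of fast fibres, was the 1 target higher than in each other clone, with 343 and 425 normalised counts in clone 12 and 23.5 to 184 in the others (2.23). RASSF4 (0.92) and PGBD5 (0.59) were higher than the mean. Several well known targets did not pass: FGFR4 had 20281 and 26095 in clone 12 and 17785 to 30433 in the others, and the log2 differences of MYCN, MET and CXCR4 were -0.01, -0.17 and -0.25.

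Among genes of muscle contraction and late differentiation, more were called higher than lower. Of 66 listed, 56 were tested, 17 were higher in clone 12, 8 were lower and 31 did not pass, so that 30.4% were higher against 12.5% of all genes, with a median of 0.094. HSPB3, a muscle member of the small heat shock proteins, had 94.7 and 91.1 normalised counts in clone 12 and 3.7 to 12.6 in the others (log2 difference 3.51, SE 0.28, adjusted p = 1.79e-05, edgeR). UNC45B, the chaperone that folds myosin, had 119 and 190 in clone 12 and 17.4 to 82.5 in the others (1.82), and MYL2, the slow regulatory light chain, had 81.0 and 86.2 in clone 12 and 0.0 to 35.4 in the others (3.73). These 3 genes and MYL1 were higher than in each other clone. The muscle list did not move as 1 block, since TNNI2, fast troponin I, had 132 and 192 in clone 12 and 481 to 2374 in the others (-2.45), and TTN, the giant spring protein titin, 551 and 876 in clone 12 and 1265 to 2982 in the others (-1.56). Of 25 myogenic regulators tested, 1 was higher (SIX2, 0.68), 2 were lower (TCF4, -0.74, and EYA3, -0.41) and 22 did not pass, MYOG among them (0.34, adjusted p = 0.0859, edgeR). These are 4% and 8%, beside 12.5% and 10.3% of all genes. Once each library's trend along transcript length was removed (the length correction), 6 of the 25 (24%) were lower, beside 13% of all genes. The same number were lower, beside 15.2% of all genes, with the replicate block at the midpoint. That fit had the library numbers 1 and 2 as a term and clone 12 set midway between them.

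**Figure D2:**
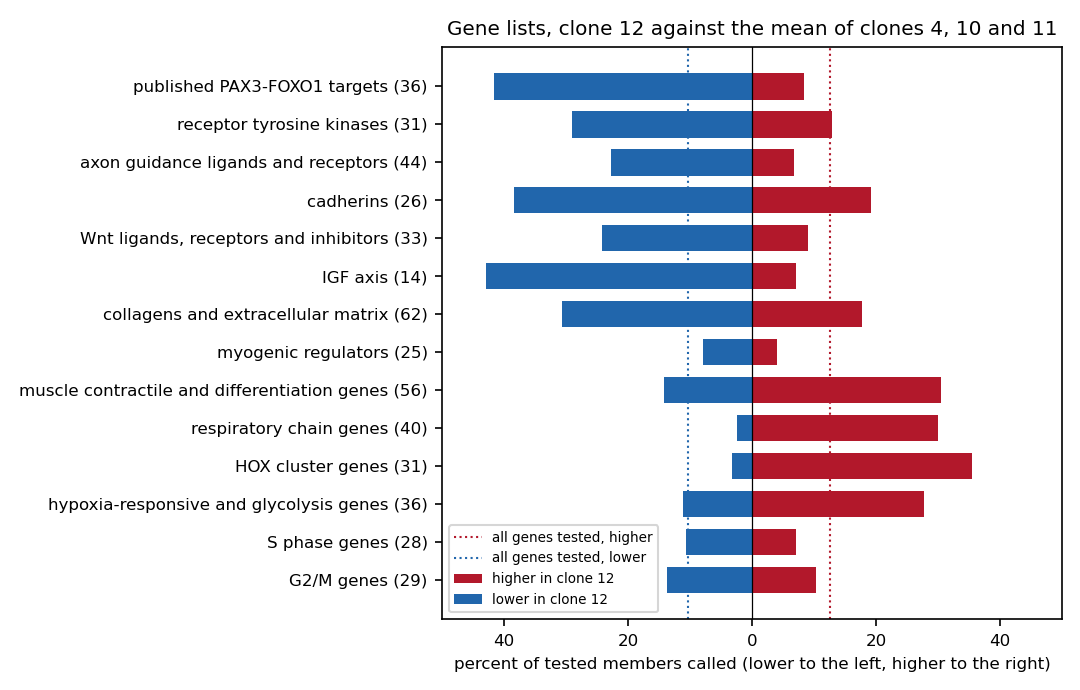
Percent of the tested members of 14 gene lists that were called higher in clone 12 (bars to the right) or lower (bars to the left) than the mean of clones 4, 10 and 11, with the number tested in brackets; dotted lines give the same share over all genes tested, 12.5% higher and 10.3% lower. The published PAX3-FOXO1 targets reach 41.7% lower and the muscle contractile genes 30.4% higher.

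Over all genes tested, 10.3% were lower and 12.5% higher. Of 31 receptor tyrosine kinases tested, 9 were lower (29%) and 4 higher (12.9%), with the ephrin receptors EPHB1 (log2 difference -3.35), EPHA3 (-2.18) and EPHA7 (-1.50), which guide cell and axon position by contact, lower than in each other clone. EFNB2, a ligand of EphB receptors such as EPHB1, had 175 and 176 normalised counts in clone 12 and 542 to 1166 in the others (-2.16), and SLIT2, a repellent ligand, was lower by 2.73 on the log2 scale. Of 44 axon guidance genes tested 10 were lower (22.7%) and 3 higher (6.82%). Of 26 cadherins 10 were lower (38.5%) and 5 higher (19.2%). After the length correction 7 were called each way (26.9%), beside 15% higher and 13% lower of all genes. CDH2, N-cadherin, had 150 and 140 in clone 12 and 264 to 511 in the others (-1.39). Among 33 Wnt pathway genes tested 8 were lower (24.2%) and 3 higher (9.09%). Among the lower ones were DKK1 (-4.40), a secreted inhibitor of the pathway, TCF7 (-2.81), a nuclear effector of Wnt signals, and WNT11 (-1.64).

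The IGF axis, a growth factor pathway active in rhabdomyosarcoma, had 6 of 14 tested members lower (42.9%, against 10.3% of all genes). It had 1 higher (7.14%, against 12.5%), and none of the 14 was called in 1 direction against each other clone. IGF2, the main ligand of these tumours, had 60616 and 65298 normalised counts in clone 12, while clone 4 had 82651 and 94082, clone 10 had 177536 and 151713, and clone 11 had 144266 and 160870 (log2 difference -1.05, adjusted p = 0.000577, edgeR), though it did not pass against clone 4. Its receptor IGF1R was lower by 0.88 on the log2 scale. IGFBP5, a binding protein that traps the ligand, had 1495 and 2369 in clone 12, while clone 4 had 48.1 and 18.2, clone 10 had 1032 and 1021, and clone 11 had 393 and 822 (2.81).

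Matrix genes moved both ways, with 19 of 62 tested collagens and matrix genes lower (30.6%, against 10.3% of all genes) and 11 higher (17.7%, against 12.5%). COL1A1, the major fibrillar collagen, had 2459 and 1853 normalised counts in clone 12 and 94.7 to 1117 in the others (log2 difference 2.87), whereas FN1, fibronectin, had 901 and 906 in clone 12 and 2514 to 9364 in the others (-2.75). COL3A1 had 335 and 339 in clone 12, but 738 and 308 in clone 4 against 19141 and 19835 in clone 10, so its difference of -2.93 rested on clones 10 and 11. Of 40 respiratory chain genes tested, 12 were higher (30%, against 12.5% of all genes) and 1 lower (2.5%, against 10.3%). With the replicate block and clone 12 at the midpoint 23 were higher (57.5%, against 18.1% of all genes). With it set at number 1, 28 were higher (70%, against 18.6%), and at number 2, 10 were (25%, against 11.9%). Among those called was NDUFB8 at 7246 and 7807 in clone 12 and 3029 to 5328 in the others (0.92). PPARGC1A, a coactivator of mitochondrial genes, had 31.9 and 47.5 in clone 12, while clone 10 had 16.8 and 14.6, and clones 4 and 11 had at most 1.2 (4.15). Among 31 HOX genes tested, 11 were higher (35.5%, against 12.5% of all genes) and 1 lower (3.23%, against 10.3%), with HOXB9 at 982 and 1255 in clone 12 and 74.2 to 682 in the others (2.38).

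Transcript length moved with the comparison. Across 13276 genes with a known length, the log2 difference of clone 12 from the other clones had a Spearman rho of -0.245 with transcript length, as a description, and the first minus second library of clone 4 had 0.564, all points sharing these libraries. Median transcript length was 3687 nucleotides over all genes tested, 5585 for the PAX3-FOXO1 targets, 6821 for the cadherins and 2097 for the respiratory chain genes. With offsets that remove each library's trend along length, 1997 genes were higher (15%) and 1728 lower (13%), and 402 and 438 against each other clone. The targets then had 16 lower and 4 higher of 36 with a median of -0.45, the muscle genes 18 higher and 11 lower with a median of 0.013, the respiratory chain genes 15 higher and 1 lower with a median of 0.24, and the cadherins 7 each way with a median of -0.088. The median of the receptor tyrosine kinases was -0.40, and -0.15 after this correction.

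Of 36 hypoxia-responsive and glycolysis genes tested, 10 were higher (27.8%) and 4 lower (11.1%), beside 12.5% and 10.3% of all genes. Of 28 S phase genes 2 were higher (7.14%) and 3 lower (10.7%), and of 29 G2/M genes 3 were higher (10.3%) and 4 lower (13.8%). After the length correction 7 S phase genes (25%) and 9 G2/M genes (31%) were lower, beside 13% of all genes. With the replicate block at the midpoint 5 (17.9%) and 9 (31%) were lower, beside 15.2% of all genes. Among the G2/M genes called higher was AURKA, a mitotic kinase, at 5376 and 6713 normalised counts in clone 12 and 2938 to 3737 in the others (log2 difference 0.84). Of 22 FOXO-responsive genes tested 2 were higher (9.09%) and 3 lower (13.6%). BCL6, a repressor, had 59.3 and 56.2 in clone 12 and 1.7 to 25.2 in the others (3.23), and FBXO32, a ubiquitin ligase of muscle atrophy, 77.6 and 63.0 in clone 12 and 8.7 to 34.4 in the others (1.63). Both were higher than in each other clone, while TXNIP (-0.97), GADD45A (-0.62) and IRS2 (-0.67) were lower than the mean.

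Some of the differences followed gene order along chromosomes. Of the tested genes, 13359 had a place in the RefSeq gene order, and 63 runs of at least 4 neighbouring genes were called in 1 direction. Of these runs 38 were higher and 25 lower, with 322 genes in all, beside 3158 genes called among all tested. The longest lay near the end of the long arm of chromosome X, with 14 neighbours from ATP2B3 to RENBP all higher (median log2 difference 1.5) and 10 from TMEM187 to FAM50A (1.2). From ATP2B3 to TMLHE, a stretch chosen after the values were seen, 39 of 42 tested genes were higher in clone 12, none was lower, and 29 were higher than in each other clone. Over all genes 12.5% were higher and 2.41% higher than in each other clone, and over X 19.9% were higher and 17.7% lower. The stretch begins and ends with runs of called genes, so its share is partly set by that choice. IRAK1, a kinase of interleukin receptors, had 25237 and 26311 normalised counts in clone 12, while clone 4 had 7264 and 8289, clone 10 had 7154 and 7977, and clone 11 had 11634 and 13333 (1.51, adjusted p = 1.66e-05, edgeR). The median difference over the stretch was 1.7 from clone 4, 1.6 from clone 10 and 0.9 from clone 11.

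Other stretches were lower. On chromosome 18, 52 of 171 tested genes were lower in clone 12 and 5 higher, so that 30.4% were lower against 10.3% of all genes, with a median of -0.34. That median was -0.20 from clone 4, -0.46 from clone 10 and -0.47 from clone 11, and CDH2, TCF4 and BCL2 are among these genes. Of the 171, 10 were lower than in each other clone and 1 was higher, beside 2.39% and 2.41% of all genes. The longest run on this chromosome, 8 lower genes from CNDP2 to NFATC1, held 0 called against each other clone. On X, 9 neighbours from PHF8 to APEX2 were all lower (median -0.9), MAGED2 with 2400 and 2114 normalised counts in clone 12 and 5278 to 9908 in the others (-1.58). On chromosome 1, 9 neighbours from TTF2 to WARS2 were higher (median 0.98), and on chromosome 5, 8 from PELO to SNX18 (1.5). MOCS2, an enzyme of molybdenum cofactor synthesis in the chromosome 5 run, had 4177 and 3473 in clone 12 and 447 to 856 in the others (2.47), and HSPB3 of the muscle list lies in the same run. PELO lies within an intron of another gene, so its reads may be split.

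A block of neighbours on X was silent in clone 12 and in clone 4, and was found after the values were seen. NRK, a kinase gene, had 0.0 and 1.0 normalised counts in clone 12 and 0.0 and 0.0 in clone 4, against 944 and 774 in clone 10 and 630 and 428 in clone 11. FAM199X had no counts in clones 12 and 4, and 188 to 203 in clone 10 and 109 to 146 in clone 11. RAB9B, TMSB15B, MCART6 and ZCCHC18, between MORF4L2 and FAM199X in gene order, likewise had no counts in clones 12 and 4 and 18.6 to 149 in clones 10 and 11. These 6 genes were called in clone 12 against clone 10 and against clone 11 (adjusted p at most 0.00209, edgeR) and not against clone 4. The test against the mean called none of them, though their log2 differences were -5.30 to -6.87 (adjusted p = 0.999925 for each, edgeR). ITIH5, with 0 counts in clones 4 and 10, was called by that test (adjusted p = 7.47e-05, edgeR). The count of genes lower than the mean thus leaves these 6 out. MORF4L2, the tested gene on 1 side, had 8889 and 9711 in clone 12 and 8169 to 12532 in the other clones, and MUM1L1, on the other side, 28.5 and 47.5 in clone 12 and 32.1 to 93.1 in the others.

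**Figure D3:**
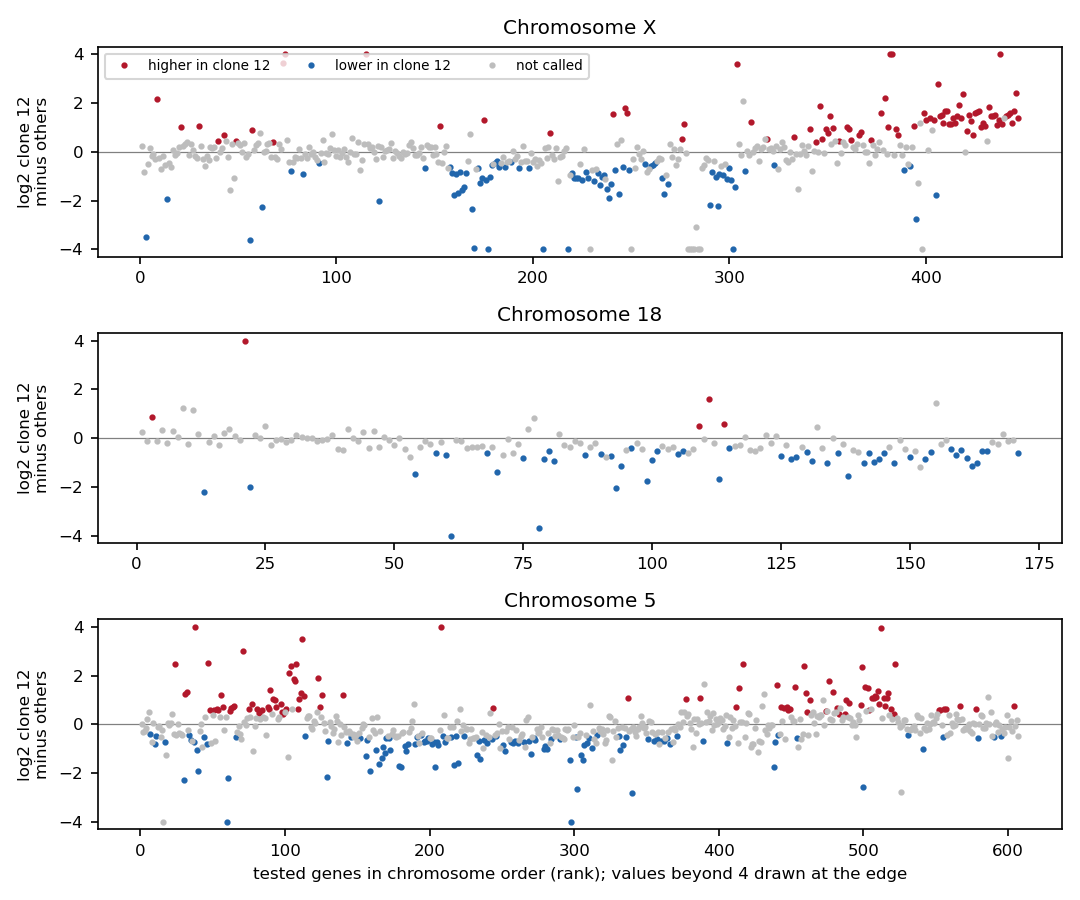
Log2 difference of clone 12 from the mean of clones 4, 10 and 11 (vertical axis) for tested genes in order along chromosomes X, 18 and 5 (horizontal axis, rank), with genes called higher in red, lower in blue and not called in grey. At the right end of X, 39 of 42 genes are higher, and on chromosome 18, 52 of 171 are lower. Over all genes tested, 12.5% are higher and 10.3% lower. The close group of grey points at the lower edge of X is the neighbours silent in clones 12 and 4. They were not called against the mean, but were called against clone 10 and against clone 11.

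The same genes were then read in the time course, which shares no library with the clones. There a PAX3-FOXO1-FKBP line and a FOXO1-FKBP line, tagged on intact FOXO1, were given dTAG at 500 nM for 2, 6, 24 or 72 h or kept in DMSO. Each condition is 1 column pooled by the authors from 2 samples, so there is no replicate error and no test. Which clone, if any, the PAX3-FOXO1-FKBP line is was not given in the sources used here.

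Genes lower in clone 12 than in each other clone were often lower after the fusion was degraded. Of the 302 of them measured in the PAX3-FOXO1-FKBP line, 73 (24.2%) were at least 2-fold lower at 72 h of dTAG than in DMSO and 4 (1.32%) at least 2-fold higher, against 3.1% and 3.27% of 12278 tested genes. Of the 250 genes higher in clone 12 than in each other clone, 43 (17.2%) showed a rise of 2-fold or more at 72 h and 3 (1.2%) a drop of that size. The pattern was present from the first time: among the genes lower in clone 12, 4.3% were at least 2-fold lower at 2 h, 13.2% at 6 h and 15.9% at 24 h, against 0.277%, 1.27% and 1.76% of all genes. Among the genes higher in clone 12, 2.0% were at least 2-fold higher at 2 h, against 0.326% of all genes. In the FOXO1-FKBP line none of 255 genes lower in clone 12 was at least 2-fold lower at 72 h, against 0.394% of 11941 genes, and 1 of 260 genes higher in clone 12 (0.385%) was at least 2-fold higher, against 0.0335%. At 2 h in that line neither set held a gene past 2-fold in its direction, against 0.0335% higher and 0.0419% lower of all genes. The median log2 change at 72 h was -0.35 for the genes lower in clone 12 and 0.22 for those higher, against -0.022 for all genes.

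The other clones gave different values by the same rule. Of the genes lower in clone 4, clone 10 or clone 11 than in each other clone, 2.28%, 3.72% and 2.15% were at least 2-fold lower at 72 h. In the same sets 8.47%, 1.55% and 12.5% were at least 2-fold higher. Over all genes tested, 3.1% were at least 2-fold lower and 3.27% at least 2-fold higher. Of the genes higher in those clones than in each other, 4.18%, 9.15% and 1.59% were at least 2-fold higher, and 13.3%, 5.49% and 7.32% at least 2-fold lower. The sets share libraries, and 28 genes are both lower in clone 12 and higher in clone 4 than in each other clone. The difference between clones in these shares was not tested. The share of 24.2% was 38.3% without the first clone 12 library and 35.5% without the second, where fewer genes were called, 18% with a replicate block at the midpoint, and 19.8% after the length correction. It was 30.4% without the first library of clone 10. The share of 17.2% was 25.8% without the first clone 12 library and 23.9% without the second, and 14.9% after the length correction.

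The genes named next were picked from those past 2-fold at 72 h in the direction of their clone 12 difference. They are examples of the pattern and not evidence for it. Among genes lower in clone 12, RELN, a secreted guidance protein, was at -1.02, -2.90, -3.74 and -4.13 on the log2 scale at 2, 6, 24 and 72 h of dTAG, and PRDM12 at -1.31, -2.74, -2.46 and -3.45. NOS1 was at -2.84, GREM1 at -2.70, FOXC2 at -2.12 and TFAP2B at -1.11 at 72 h. DUSP6, a phosphatase that limits ERK signalling, was lower by 1.45 in clone 12 and at -1.88 at 72 h. Among genes higher in clone 12, HSPB3 was at 0.23, 1.08, 2.93 and 5.63 at the 4 times, UNC45B at 5.56, MYL1 at 4.79, COL1A1 at 2.40 and BCL6 at 1.49 at 72 h.

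Not every leading gene followed. TNNI2, lower in clone 12, was at 1.82 at 72 h of dTAG, COL15A1, higher in clone 12, was at 0.21 and ENO2 at 0.01. Over the 36 published targets, 25 lay below 0 in both comparisons, 6 above 0 in both and 5 on opposite sides. That is 69.4% lower in both, against 32.2% of 12278 genes. In clone 12 by itself 27 of the 36 lay below 0. The list leans down in each comparison by itself, so the gap to all genes does not measure agreement between them. Over 52 muscle contractile genes measured in both, 30 lay above 0 in both (57.7%, against 29.4% of all genes), 1 below 0 in both and 21 on opposite sides. In clone 12 by itself 31 of the 56 tested lay above 0 and 25 below. The share above 0 in both is close to that, so it does not measure agreement between the 2 comparisons. POU4F1 and CNR1, at -3.19 and -3.36 at 72 h of dTAG, differed by -0.14 and -0.57 in clone 12 and were not called.

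**Figure D4:**
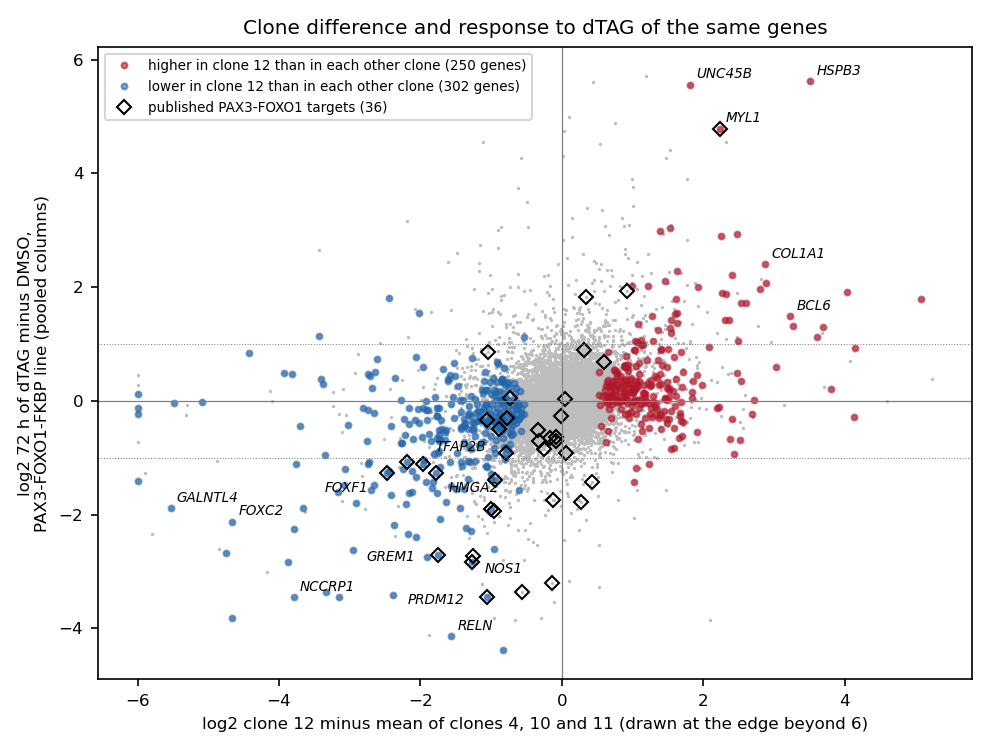
Each point is a gene, with its log2 difference of clone 12 from the mean of clones 4, 10 and 11 on the horizontal axis and its log2 change at 72 h of dTAG against DMSO in the PAX3-FOXO1-FKBP line on the vertical axis; dotted lines mark 2-fold. Genes lower in clone 12 than in each other clone (blue, 302) reach far below the lower line and those higher (red, 250) far above the upper line, and 25 of 36 published targets (diamonds) lie in the lower left quadrant.

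**Figure D5:**
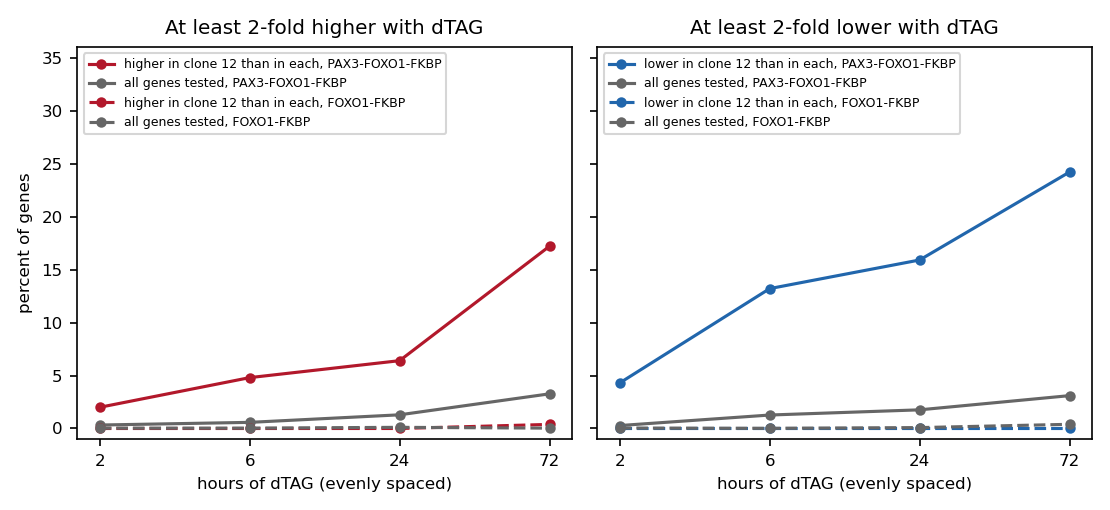
Percent of genes at least 2-fold higher (left panel) or lower (right panel) than DMSO at 2, 6, 24 and 72 h of dTAG, for the genes higher or lower in clone 12 than in each other clone (coloured) and for all genes tested (grey), in the PAX3-FOXO1-FKBP line (solid) and the FOXO1-FKBP line (dashed). At 72 h the coloured solid lines reach 17.2% and 24.2%, and every dashed value lies below 0.5%.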

How the data were processed

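Clone values are whole-number read counts per gene as deposited by the authors, with 1 column per library. Time-course values are estimated counts, which the authors pooled to a single column for each condition, per the file headers. Trimmomatic 0.32, Bowtie2, Cuffdiff 2.1.1 and the build hg19 appear in the submitters' processing notes, without their roles; neither the counter nor its annotation is named there. The 8 libraries were fitted with edgeR 4.0.16 (R 4.3.3; filterByExpr with a minimum count of 10, TMM, 1 mean per clone, 4 residual degrees of freedom, common biological coefficient of variation 0.161) and called at a Benjamini-Hochberg adjusted p under 0.05. DESeq2 1.42.0 and other settings were tried. On simulated counts for this comparison over 13879 genes, 68% of 2-fold and 95% of 4-fold changes were recovered and 11.4% of calls were false.

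Time-course columns were scaled with TMM; genes averaging 50 or more were kept, genes with a 0 in 1 column and at least 10 in another were left out, and log2 changes used a prior count of 2. Gene order came from RefSeq GRCh38.p14 and transcript length from GENCODE, both matched by symbol.

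Named genes are PAX3, FOXO1 and FKBP1A, the 12 largest differences each way and the 8 each way largest against every clone among called genes averaging 50 normalised counts or more, up to 4 called members of each of 41 lists, and the longest runs of neighbours; Y-linked genes and names such as LOC were left out. Further list members, on or off genes and genes shared with the time course were named after their values were seen. Members, lists and tests were chosen with earlier results of these data known. Library numbers 1 and 2 pair clones 4, 10 and 11 (correlations of first minus second library 0.39, 0.171 and 0.152), while clone 12, whose titles carry 3 and 4 and whose columns carry 1 and 2, gave 0.157, 0.215 and 0.09 with clones 4, 10 and 11 and was not taken as paired, since the last is under 0.1. Libraries of a clone differed beyond sampling noise. Bounds and intervals cover counting error only. Reads of close paralogs, such as MAGE genes, may have been split between copies.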

Additional observations from a re-analysis of the deposited data

How the results depend on the processing

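Counts of genes higher and lower than the mean of the other clones lay within 1.5 times of 1734 and 1424 under DESeq2, DESeq2 size factors, library totals, no filter, a minimum count of 50, a fit with all 10 clone and parental libraries, the length correction and reference means without clone 4, 10 or 11. With at least 2-fold as well, 660 and 526 passed, and 169 and 182 against each clone. With each clone as 1 sample, 2 and 0 were called, and ITIH5 had -0.0394 in place of a fitted 5.51. A replicate block over numbers 1 and 2, added after seeing the data, put clone 12 at the midpoint (534 higher and 508 lower than each clone, 18% of the lower genes at least 2-fold lower at 72 h) or at number 1 (2353 lower than the mean, 2597 higher and 2717 lower than clone 4, 631 and 590 against each clone, with 11.7% and 17.4% following dTAG). The midpoint block called 2514 higher and 2116 lower than the mean, and at number 2 no count moved as far. Leaving out 1 library gave 672 to 2301 higher and 407 to 2080 lower than the mean, 803 to 2006 and 707 to 2287 against clone 4, 639 to 2358 and 800 to 2622 against clone 10, 725 to 2002 and 508 to 1816 against clone 11, and 137 to 412 and 129 to 424 against each, with shares following dTAG of 14.9% to 25.8% and 22.4% to 38.3%. The cause of these shifts was not tested, except that a clone left with 1 library is assumed to vary like the others. Of 197 named genes called, 120 stayed called in 1 direction under every setting but the clone as 1 sample. With 2 libraries per clone, differences under 2-fold are the least certain.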

Other observations

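Parental Rh30, which is in none of the comparisons above, had intermediate levels of several genes that were on or off in clone 12 alone. Values here are CPM, without a test. MAGEC1 had 42.7 to 45.2 in clone 12, at most 0.132 in the other clones, and 2.65 and 3.06 in the 2 parental libraries. MAGEC2 had 24.1 to 26.1 in clone 12, at most 0.0563 in the other clones, and 8.67 and 9.24 in parental cells. DSCR8 had 5.52 to 5.66 in clone 12, 0 in the other clones, and 1.26 and 2.01 in parental cells. Both parental libraries lay between clone 12 and the other clones in 9 of the 16 such genes, ANKRD29, DSCR4, ESRRB, MIA, NOL4 and ZDHHC15 being the others. Not all of these were midway. ZDHHC15 had 0.0841 and 0.0745 in parental cells, near the 0 of clone 12, and 1.48 to 4.7 in the other clones. MIA had 0.21 and 0.186 in parental cells, at most 0.176 in the other clones, and 3.44 to 4.61 in clone 12. DNAH5, an axonemal dynein chain, had 6.16 to 8.91 in clone 12, at most 0.209 in the other clones and at most 0.0841 in parental cells, and CTAG2 had 1.0 to 1.31 in clone 12 and 6.39 and 7.49 in parental cells. PRDM16 had 0 in clone 12, 1.07 to 13.1 in the other clones and 5.51 and 4.62 in parental cells.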
